A study of Arabidopsis thaliana with 12 samples.

Results

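CSLA01 (AT4G16590), GH9B8 (AT2G32990) and GH9B11 (AT2G44560) are 3 *Arabidopsis thaliana* genes for enzymes that make or cut polysaccharides of the plant cell wall. They were taken by name, as the probes of the array whose annotation lists exactly 1 gene, that gene being CSLA01, GH9B8 or GH9B11. Each has 1 such probe, so 3 of the 691 genes with a probe of their own and 3 of the 3439 probes of the array are described, and all 3 passed the filter on dim probes that left 3202 probes for testing. Total RNA was compared between 6 samples of the psad1 mutant and 6 wild-type (WT) samples, both in the ecotype Columbia 0. In psad1 the protein PSI-D1 is missing, which belongs to photosystem I and lies where ferredoxin docks in the chloroplast. The sources used here name neither the allele, the tissue nor the plants' age and growth.

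Plant cell walls hold cellulose microfibrils in a matrix of hemicelluloses and pectins. CSLA proteins are glycosyltransferases of the Golgi apparatus that join mannose and glucose into the backbone of mannans and glucomannans, a class of hemicelluloses. GH9 proteins are endo-1,4-beta-glucanases, also called cellulases, that cut beta-1,4-linked glucan chains internally, and those of class B are secreted to the wall without a membrane anchor or a carbohydrate-binding domain. No role is given here to CSLA01, GH9B8 or GH9B11 beyond that of their families.

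The deposited values are intensities on a linear scale that had already been scaled between samples, with sample means of 1.05 to 1.07. In each sample a floor was set at the 5th percentile of its positive values, 0.161 to 0.182 in psad1 and 0.152 to 0.184 in WT, and values below it were raised to it before log2 was taken. Levels of different probes are not comparable, so levels are compared within a probe only. The 12 samples were not independent: in each genotype samples 1 and 2, 3 and 4, and 5 and 6 resembled each other, and across probes the deviations from the mean of the genotype correlated with r of 0.469 to 0.649 within such sets, against −0.609 to −0.111 outside them. Subtracting the mean of the genotype by itself moves such r below 0, so the negative values outside sets are partly built in. Each such set of 2 samples was averaged and counted as 1 replicate, which gives 3 set averages per genotype, and the outcome with 12 samples as replicates is printed beside it. Whether these samples come from different plants is not stated in the labels, and the p-values cover no more than the spread seen among them, which may be technical.

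CSLA01, the gene of the glucomannan synthase family, was lower in psad1 in every sample and every set, and its test fell just short of the threshold on set averages. The intensity of CSLA01 in psad1 samples had a lowest value of 0.253, a median of 0.28 and a highest value of 0.365, against 0.408, 0.454 and 0.488 in WT samples. The highest psad1 sample thus lay below the lowest WT sample. Over set averages CSLA01 measured 0.295 ± 0.04 in psad1 and 0.45 ± 0.0322 in WT (SD, n = 3 sets each). The log2 change was −0.62 with a standard error (SE) of 0.12 and a 95% interval of −0.89 to −0.34, which makes the psad1 level 0.652 of the WT level. In RNA of whole samples, fewer cells that express a gene and less of its RNA per cell cannot be told apart. With limma and Benjamini-Hochberg adjustment over the 3202 tested probes, the adjusted p was 0.0505 on set averages and 0.000294 on 12 samples, at a threshold of 0.05. On set averages 0.874% of the tested probes passed in either direction and 0.406% with a lower value in psad1. On 12 samples these shares were 15.8% and 8.06%. Samples that do not overlap, with psad1 below WT, were found in 4.84% of tested probes, and set averages of that kind in 12%.

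CSLA01 was lower in psad1 whichever sets were compared, with set averages of 0.264 to 0.34 in psad1 and 0.429 to 0.487 in WT. Between sets of the same number the log2 change, psad1 minus WT, was −0.71 in set 1, −0.52 in set 2 and −0.61 in set 3. Another matching of the sets would give other sizes. Set 2 had the highest CSLA01 level in both genotypes, with intensities of 0.315 and 0.365 in psad1 samples 3 and 4 and of 0.485 and 0.488 in WT samples 3 and 4. Partner samples differed by a median of 0.127 and at most 0.211 on the log2 scale, less than the difference between genotypes. With the set number as a block, the log2 change of CSLA01 was the same and limma's adjusted p on set averages was 0.0432. The same-numbered sets were not taken as pairs in the test without the block. Deviations of psad1 and WT correlated with r = 0.228 for set 1, 0.488 for set 2 and −0.0541 for set 3. These values do not decide whether the sets are pairs.

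**Figure D1:**
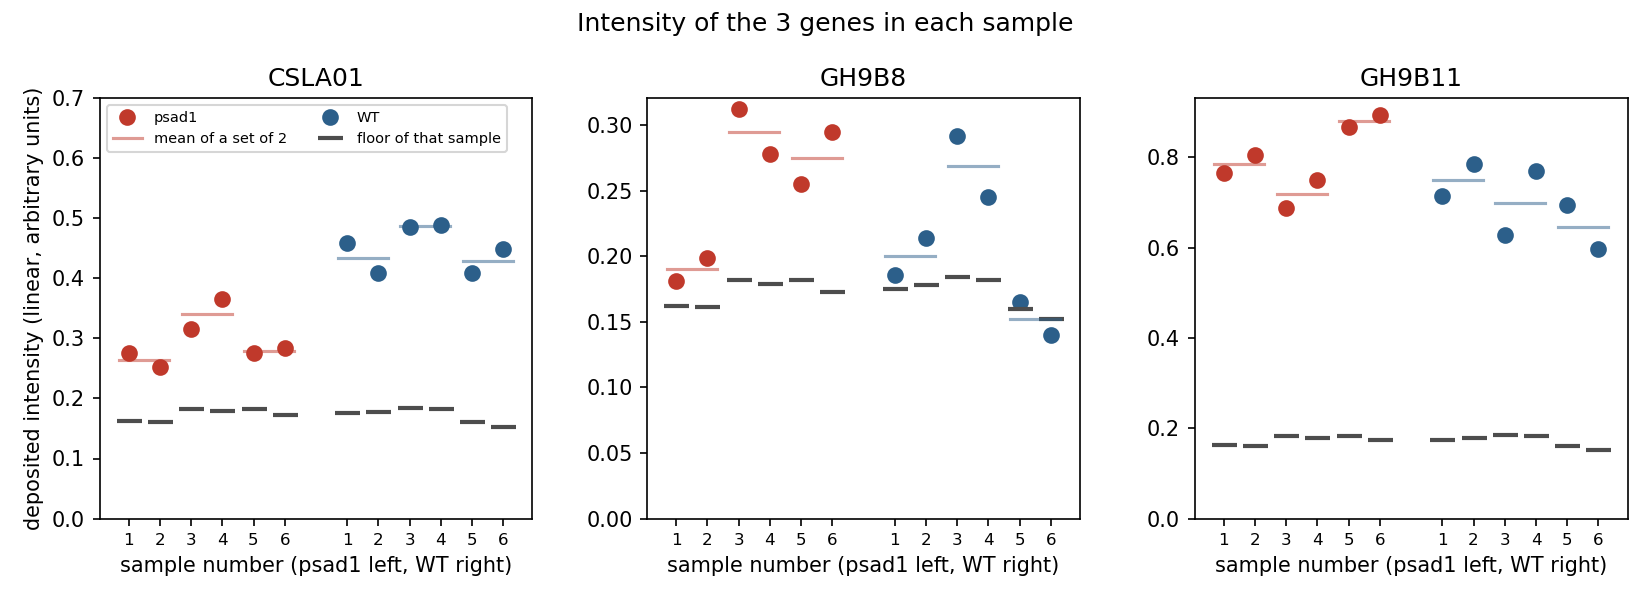
Deposited intensity of CSLA01, GH9B8 and GH9B11 (vertical axes, linear, starting at 0 and scaled separately for each gene) in psad1 samples 1 to 6 (left, red) and WT samples 1 to 6 (right, blue). Coloured lines are means of sets of 2 samples and dark dashes the floor of each sample. CSLA01 lies above the floor in all 12 samples, with psad1 at 0.253 to 0.365 and WT at 0.408 to 0.488, whereas GH9B8 runs close to the floor and GH9B11 overlaps between genotypes.

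The CSLA01 probe is dim, but it stood above the floor in all samples. Its intensity was 1.51 to 2.04 times the sample's floor in psad1 and 2.3 to 2.96 times in WT, so no CSLA01 value was raised to the floor. At the 10th percentile, where the floor lay between 0.22 and 0.257, all 12 CSLA01 values were still above it, and the log2 change stayed at −0.62 (adjusted p 0.0431 on set averages). With 1 common floor of 0.184 for all samples the log2 change was again −0.62, with an adjusted p of 0.0693. The share of an intensity that is background is not known, and the ratio of 2 dim values depends on it. Counted as height above the floor, CSLA01 averaged 0.121 ± 0.033 in psad1 and 0.278 ± 0.0239 in WT (SD, n = 3 sets each), and the samples ranged from 0.0916 to 0.186 in psad1 and from 0.23 to 0.307 in WT. Again the genotypes did not overlap. An offset of 0.1 added in place of the floor gave a smaller log2 change of −0.48 (adjusted p 0.0502 on set averages), as an offset does for any dim probe.

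The floor overlapped between genotypes, at 0.161 to 0.182 in psad1 and 0.152 to 0.184 in WT. What part the floor has in the change of CSLA01 was not tested. Over 12 samples the log2 intensity of CSLA01 correlated with the log2 floor with r = 0.133, and within genotypes with r = 0.621 in psad1 and 0.46 in WT (n = 6 samples each, samples of a set being alike). The difference between genotypes lowers the r over 12 samples, so that r does not show that CSLA01 varied apart from the floor. Among the 12 tested probes on each side of CSLA01 in order of probe number, the median log2 change was 0.0022. The lowest was −0.27 and the highest 0.889, and 0 of 24 were as low as CSLA01. Whether probe numbers follow places on the array was not tested. After subtraction of a running median over 25 neighbouring probe numbers, the log2 change of CSLA01 was −0.59 with an adjusted p of 0.042 on set averages.

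Whether CSLA01 passed depended on the setting, while its log2 change stayed below 0. Over 33 alternative settings, sets and samples left out included, the log2 change ranged from −0.72 to −0.48 and was below 0 in all 33. The limma adjusted p ranged from 0.000294 to 0.196 and passed in 16. The 16 include settings that count the 12 samples as replicates, which gave the lowest adjusted p. None of the settings subtracted a background, so the range does not show how the size of the change depends on it. With a set left out, CSLA01 passed in 0 of 6 cases, with log2 changes from −0.72 to −0.54 and adjusted p from 0.058 (without psad1 set 2) to 0.196 (without WT set 1). With 1 sample left out and its partner standing for the set, CSLA01 passed without psad1 sample 4 (adjusted p 0.0266) or 6 (0.0471) and without WT sample 2 (0.0436), 4 (0.0488) or 5 (0.045), and not without any of the other 7.

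**Figure D2:**
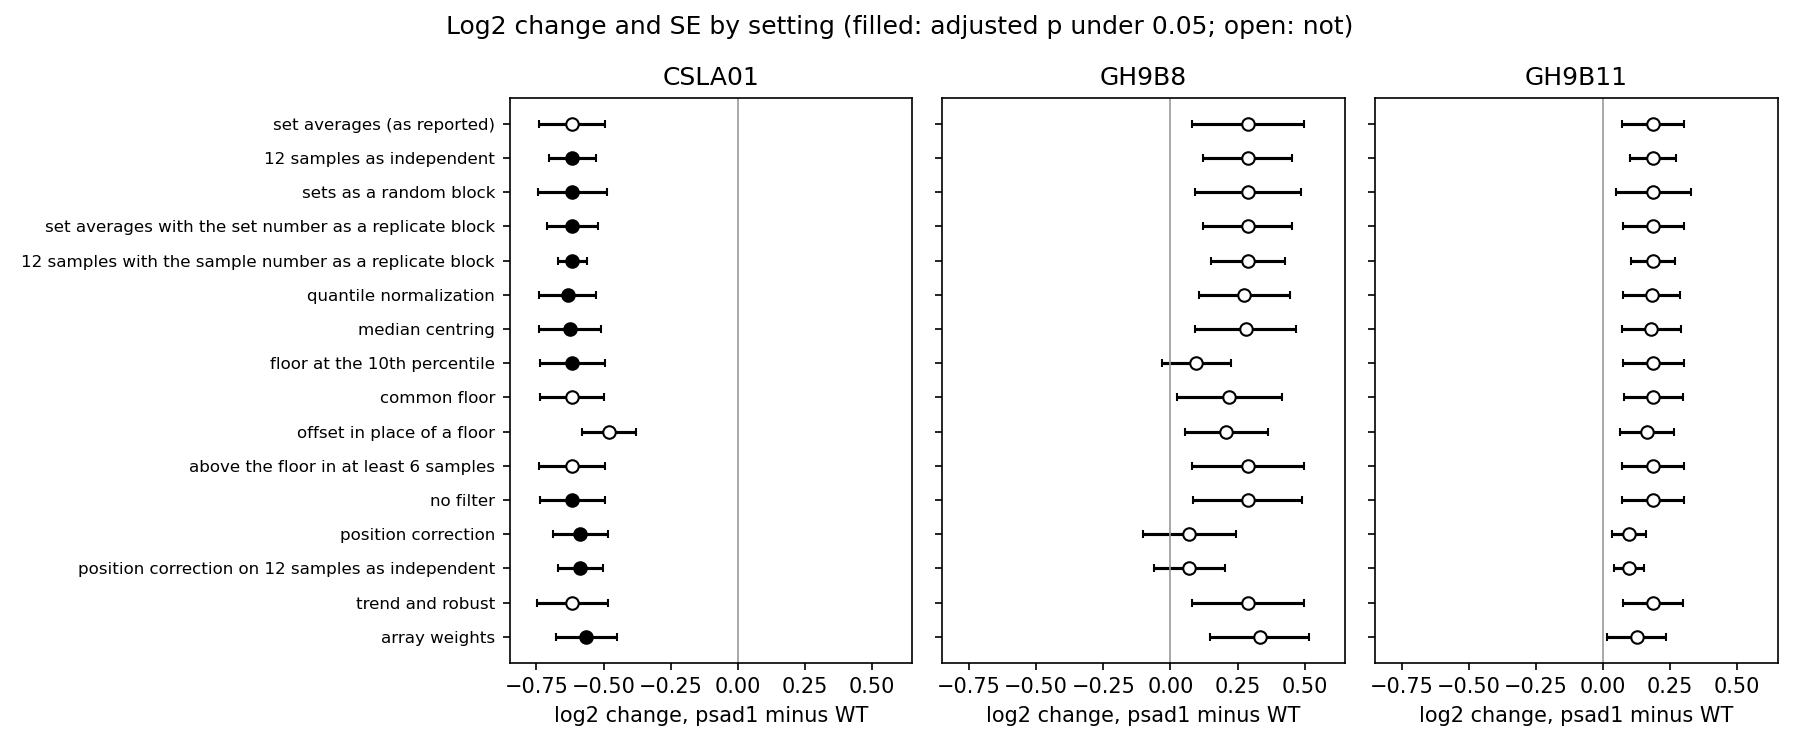
Log2 change, psad1 minus WT (horizontal axes), of CSLA01, GH9B8 and GH9B11 on set averages as reported (top) and under 15 other settings. Bars are 1 SE, filled points have an adjusted p under 0.05 and open points do not. CSLA01 stays between −0.63 and −0.48 in these settings and passes in 11 of them, while GH9B8 (0.07 to 0.33) and GH9B11 (0.10 to 0.19) pass in 0. The 11 include settings that count the 12 samples as replicates, though samples of a set are alike, and the block by set number.

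GH9B8, a cellulase gene of class B, was near the floor of the array and its genotypes overlapped. In psad1 samples its intensity had a lowest value of 0.181, a median of 0.266 and a highest value of 0.312, against 0.14, 0.2 and 0.292 in WT samples. By set, GH9B8 averaged 0.19, 0.295 and 0.275 in psad1 sets 1, 2 and 3, and 0.2, 0.269 and 0.153 in the WT sets. Set 2 was thus the highest and set 1 the lowest in psad1, while in WT set 2 was the highest and set 3 the lowest. The means were 0.254 ± 0.0556 in psad1 and 0.207 ± 0.0583 in WT (SD, n = 3 sets each). The log2 change of 0.29 (SE 0.21, 95% interval −0.18 to 0.75) did not pass, with a limma adjusted p of 0.53 on set averages and 0.235 on 12 samples. That interval takes in both no difference and a rise by more than the size of the CSLA01 change, so the probe does not settle whether GH9B8 differed.

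The pattern of GH9B8 over samples was close to that of the floor. Its intensity was 1.12 to 1.72 times the sample's floor in psad1 and 0.926 to 1.59 times in WT, and WT sample 6 was the sample below it. Over 12 samples the log2 intensity of GH9B8 correlated with the log2 floor with r = 0.847, and within genotypes with r = 0.862 in psad1 and 0.929 in WT (n = 6 samples each). These correlations describe probes and floors of the same 12 arrays, with partner samples alike. With the floor at the 10th percentile, 3 of 6 psad1 and 5 of 6 WT values of GH9B8 were at or below it, and the log2 change was 0.10. What part of the GH9B8 signal comes from its transcript was not tested.

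With sets matched by number, the difference in GH9B8 lay mostly in set 3, and another matching would give other sizes. The log2 change between sets of the same number was −0.07 in set 1, 0.14 in set 2 and 0.79 in set 3. In set 3 the 24 neighbouring probes had a median log2 change of 0.58, and 23 of them were above 0, while in set 1 their median was −0.00054. Over the 3 sets together the neighbours' median was 0.22, and 16 of the 24 neighbours were below the value of GH9B8. After the running median was subtracted, the log2 change of GH9B8 was 0.07 (adjusted p 0.899). Without WT set 3 it was 0.11.

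**Figure D3:**
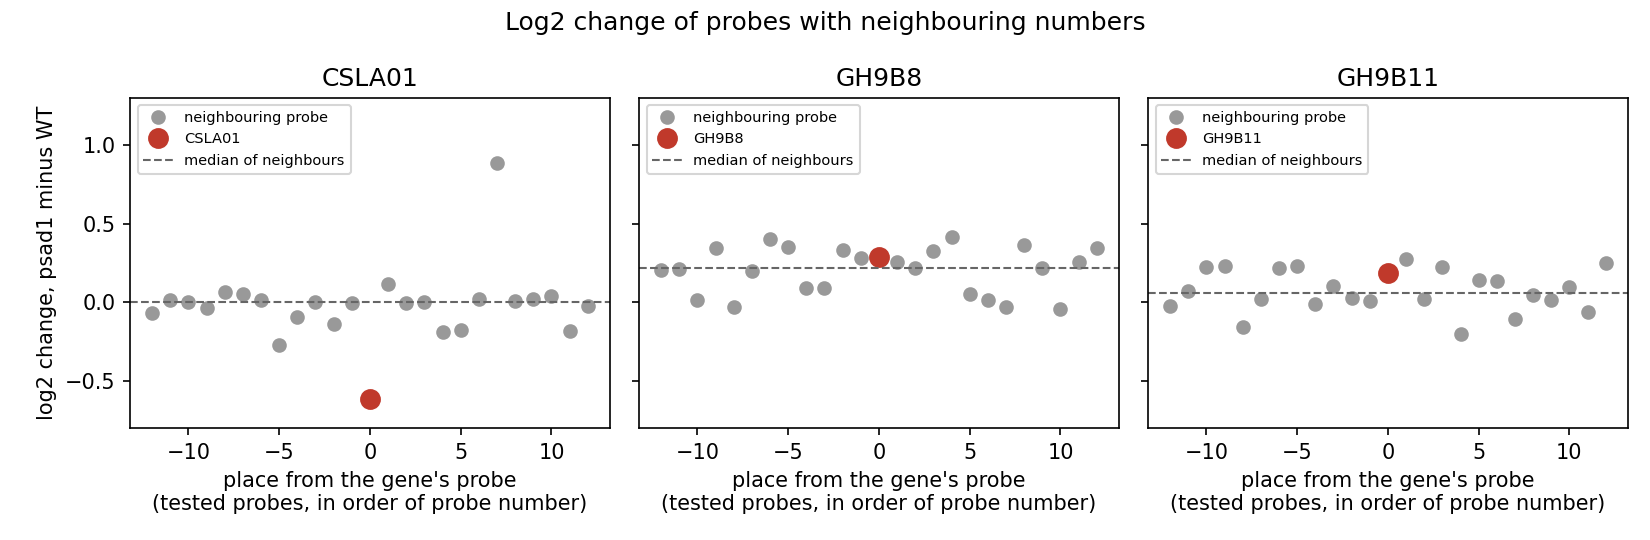
Log2 change, psad1 minus WT (vertical axis, set averages), of CSLA01, GH9B8 and GH9B11 (red) and of the 12 tested probes on each side in order of probe number (grey, horizontal axis), with the neighbours' median as a dashed line. CSLA01 lies at −0.62 under a neighbours' median of 0.0022, while GH9B8 (0.29 against 0.22) and GH9B11 (0.19 against 0.06) lie within the range of their neighbours.

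GH9B11, the other cellulase gene of class B, was well above the floor and also overlapped between genotypes. Its intensity in psad1 samples had a lowest value of 0.688, a median of 0.784 and a highest value of 0.894, against 0.597, 0.705 and 0.786 in WT samples. The means were 0.794 ± 0.0813 in psad1 and 0.698 ± 0.0526 in WT (SD, n = 3 sets each). Its log2 change was 0.19 (SE 0.12, 95% interval −0.07 to 0.45), with a limma adjusted p of 0.467 on set averages and 0.137 on 12 samples, so no difference was shown. The upper end of the interval leaves room for a rise of 0.45 and the lower end for a decrease of 0.07 on the log2 scale.

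GH9B11 was highest in psad1 samples 5 and 6, at 0.866 and 0.894, where WT samples 5 and 6 had 0.694 and 0.597. Between sets of the same number its log2 change was 0.06 in set 1, 0.05 in set 2 and 0.45 in set 3, and another matching would give other sizes. The 24 neighbouring probes had medians of −0.08, −0.01 and 0.31 in the same 3 sets, and in set 3, 22 of the 24 were above 0. After subtraction of the running median the log2 change of GH9B11 was 0.10 (adjusted p 0.52). Over all 3202 tested probes the median log2 change was −0.11 in set 1, 0.0013 in set 2 and 0.02 in set 3, and the 95th percentile was 0.46, 0.33 and 0.78.

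GH9B11 stands in a run of 4 neighbouring cellulase genes on chromosome 2, GH9B9, GH9B10, GH9B11 and GH9B12, in the gene table of assembly TAIR10.1. The array has 4 probes for this run: 1 that lists GH9B11 alone, 1 that lists GH9B12 alone, 1 that lists GH9B9 and GH9B10, and 1 that lists all 4. Related copies may share signal on an array, which was not tested, so each value is uncertain as a measure of 1 gene. GH9B12 measured 0.617 ± 0.0904 in psad1 and 0.572 ± 0.0348 in WT (SD, n = 3 sets each), which is a difference of 0.10 on the log2 scale (SE 0.13, adjusted p 0.736 on set averages). The probe for GH9B9 and GH9B10 differed by 0.22 on the log2 scale (SE 0.12) with an adjusted p of 0.417, and the probe for all 4 genes by 0.26 (SE 0.13) with an adjusted p of 0.382.

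The probes of the run followed GH9B11 from sample to sample. Over 12 samples the log2 values of GH9B11 correlated with those of the probe for all 4 genes with r = 0.859, with the probe for GH9B9 and GH9B10 with r = 0.686 and with GH9B12 with r = 0.67. Over the 6 set averages the values were 0.943, 0.819 and 0.908. In each of these probes set 3 had the highest log2 change, 0.59 for all 4 genes, 0.50 for GH9B9 and GH9B10 and 0.42 for GH9B12. These probes share samples and may share target sequence, and their numbers on the array are close together, so they are not separate evidence of a difference.

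The other cellulase gene with a probe of its own was GH9B16, also of class B. GH9B16 measured 0.6 ± 0.0912 in psad1 and 0.57 ± 0.0755 in WT (SD, n = 3 sets each), a difference of 0.07 on the log2 scale (SE 0.15, adjusted p 0.834). It was lowest in set 2 of both genotypes, at 0.495 in psad1 and 0.482 in WT, unlike GH9B8, which was highest there. GH9B8 and GH9B16 had r = −0.566 over 12 samples. The cellulase probes thus did not all vary alike from set to set.

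Counting probes with 1 gene and with several, 11 probes listed a GH9 gene, 9 with a log2 change above 0 and 2 below, between −0.09 and 0.29 with a median of 0.10. Over all tested probes 46.7% were above 0 and the median was −0.02. The 11 are not separate evidence, since probes of the GH9B9 to GH9B12 run vary alike. Of the 9, GH9B8 lay near the floor, as did the probe for GH9C2 and GH9C3, at 1 to 1.48 times it. A probe for GH9B14 and GH9B15, also of the 9, was at or below the floor in 6 psad1 and 5 WT samples. With limma 0 of the 11 passed on set averages or on 12 samples, against 0.874% and 15.8% of tested probes. At an unadjusted p under 0.05 they were 0 on set averages and 3 on 12 samples, against 14.9% and 33.3% of tested probes. Set averages of psad1 and WT overlapped in all 11, where 20.8% of tested probes did not overlap. In set 3 alone the median of the 11 was 0.42, against −0.03 in set 1 and 0.05 in set 2.

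**Figure D4:**
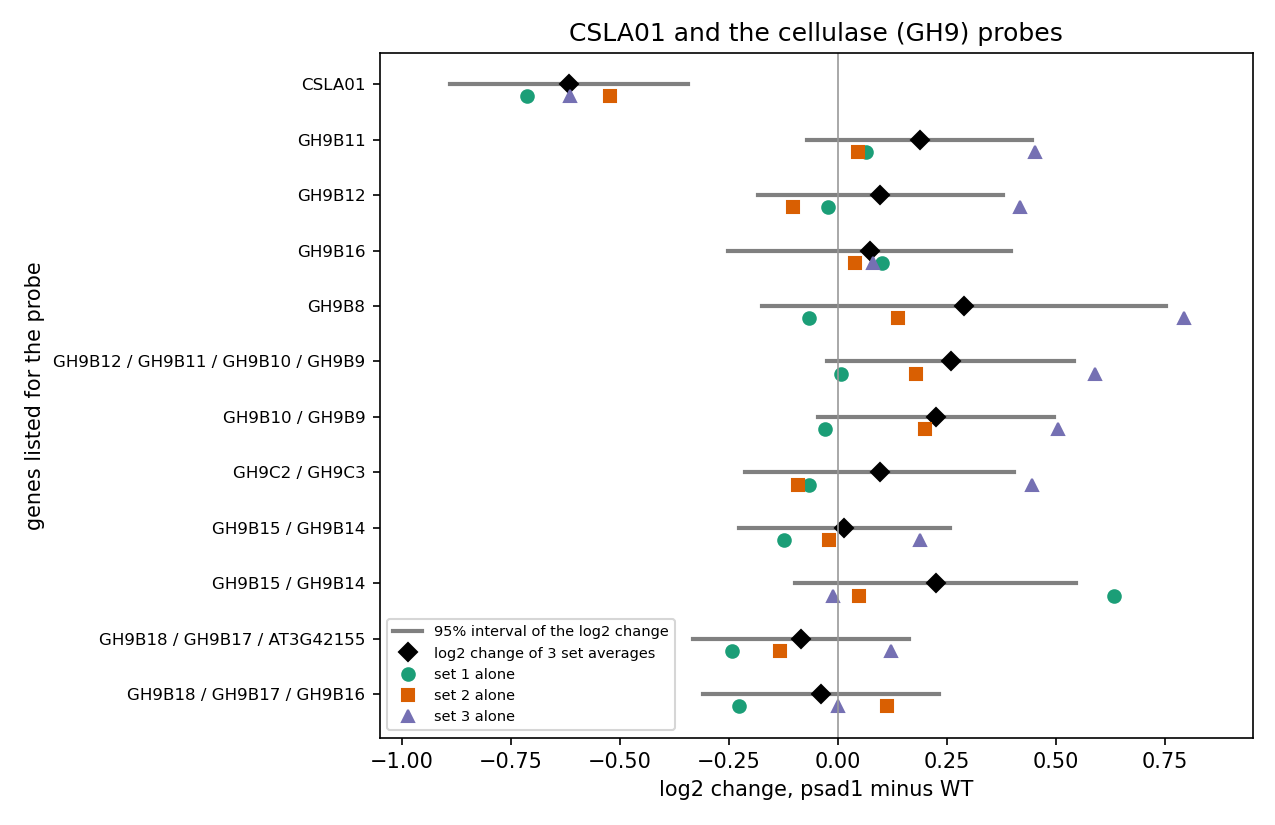
Log2 change, psad1 minus WT (horizontal axis), of CSLA01 and of the 11 probes that list a GH9 gene (rows, with the genes each probe lists). Diamonds are the change of 3 set averages with its 95% interval, and coloured points below them the change between sets of the same number. The points of CSLA01 lie together between −0.71 and −0.52, while GH9B8, GH9B11 and the other probes of the GH9B9 to GH9B12 run have their highest point in set 3.

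A ratio of 2 probes within a sample removes any factor common to that sample. Its level means nothing across probes, but its difference between genotypes shows unequal change of the probes. The log2 ratio of CSLA01 to GH9B11 differed by −0.804 (psad1 minus WT), with set values of −1.65 to −1.08 in psad1 and −0.793 to −0.514 in WT, which did not overlap. CSLA01 alone already did not overlap between genotypes, so the ratio largely repeats that and is not separate evidence. How often ratios of other probe pairs do not overlap was not computed. A 2-sided exact permutation test gave p = 0.1 on the 3 set averages per genotype and 0.00216 on 12 samples, each the smallest it can give (0.15 and 0.00324 after adjustment over the 3 pairs of members). On set averages this test cannot give a p under 0.05, and on 12 samples it counts alike samples of a set as independent. Both p follow largely from CSLA01 alone not overlapping, so they add no support for an unequal change. The 2 ratios with GH9B8 are not given, since GH9B8 lay near the floor.

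Few other genes of the cell wall could be traced to a probe of their own. Of 9 lists of cell wall genes, made from gene symbols, 7 held no gene with such a probe: cellulose synthesis, xyloglucan and xylan synthesis, xyloglucan remodelling and expansins, hydrolases, pectin, nucleotide sugars and structural proteins. CSLA01 was the member with its own probe among 18 genes of mannan synthesis and GDP-mannose supply, and GH9B8, GH9B11, GH9B12 and GH9B16 were 4 of 24 cellulase genes. These 4 had a median log2 change of 0.14, all above 0, where 46.7% of all tested probes were above 0. On set averages and on 12 samples 0 of the 4 passed, against 0.874% and 15.8% of tested probes. The direction was not the same in each set: GH9B12 had −0.02 in set 1 and −0.10 in set 2, and GH9B8 had −0.07 in set 1. GH9B11 and GH9B12 also vary alike, so the 4 are not separate evidence. A further 9 probes listed several genes, at least 1 of them from the lists and none of them a GH9 gene, with log2 changes from −0.03 to 0.49 and a median of 0.08. Of these 9, 0 passed on set averages with limma and 2 on 12 samples, against 0.874% and 15.8% of tested probes, and 2 had an unadjusted p under 0.05 on set averages, against 14.9%. Both that passed on 12 samples were chosen after their values were seen: the probe for TBL23 and TBL24, of a family of polysaccharide acetyltransferases, higher in psad1 by 0.49 on the log2 scale (SE 0.15), with an adjusted p of 0.163 on set averages and 0.00713 on 12 samples, and a probe for 3 CSLC genes, of the family that makes the xyloglucan backbone, higher by 0.24 (SE 0.10), with an adjusted p of 0.32 and 0.015. The other probes that list a CSLC gene did not pass. Their log2 changes were 0.23, 0.08 and −0.03, with limma adjusted p of 0.0808, 0.452 and 0.8 on 12 samples. The family as a whole was thus not shown to be higher in psad1.

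The genes whose pattern was most like each member were taken from the other 639 tested probes with 1 gene, by Pearson's r of log2 values over 12 samples. For CSLA01 they were AT3G44810 (r = 0.93), AT4G05490 (0.92) and AT1G50880 (0.916), with log2 changes of −0.26, −0.32 and −0.41 and adjusted p of 0.301, 0.245 and 0.116 on set averages. Being picked for likeness to CSLA01 largely sets this direction, so it is no result about them. For GH9B8 they were AT5G23540 (r = 0.928), AT2G22890 (0.926) and AT3G04560 (0.913), with log2 changes of 0.28, 0.20 and 0.31 and adjusted p of 0.603, 0.569 and 0.487 on set averages. GH9B8 itself ran close to the floor, and whether these genes follow the floor was not tested. For GH9B11 they were AT4G34310 (r = 0.914), AT3G54210 (0.88) and AT2G21960 (0.88), with log2 changes of 0.36, 0.18 and 0.16 and adjusted p of 0.264, 0.525 and 0.578 on set averages. For GH9B8 and GH9B11 too, the direction follows largely from the choice by likeness. The values describe probes measured on the same samples, which fall into sets, and were not tested. CSLA01 itself had r = −0.646 with GH9B11 and −0.169 with GH9B8.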

How the data were processed

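A single table of 3439 probes by 12 samples was used. The authors deposited its values as intensities; the unit was taken from the values, which are linear, never negative and skewed, and how the array was scanned, corrected for background and scaled is not stated in the sources used here. Gene names come from the annotation of the platform, in which 692 probes list 1 gene (690 matched in the TAIR10.1 gene table), 870 several and 1877 are not listed. Values were floored at each sample's 5th percentile of positive values, log2 was taken, and 237 probes that rose above the floor in no sample were left out. Set averages (3 psad1, 3 WT) were tested by limma 3.58.1 under R 4.3.3 (lmFit and then eBayes, 2-sided, Benjamini-Hochberg over 3202 probes, threshold 0.05). Within its genotype each of the 12 samples correlated best with its set partner. Between genotypes, the deviations of samples with the same number had r of 0.00805 to 0.483, 4 of 6 over 0.1. These values do not decide whether the numbers mark pairs. They were not taken as pairs in the test on set averages, and blocks by number are among the alternatives. Alternatives covered the replicate unit, blocks, normalization, floor, filter, position, variance model and leaving out sets or samples. The number of samples limits the precision. The members, the 9 lists, the sets and the alternatives were chosen with earlier results of these data known. Named genes were the 3 members, list genes with a probe of their own (at most 4 a list) and the 3 genes most alike to each member. Genes of probes that list several are named beside them only as that probe's annotation, TBL23, TBL24 and the CSLC probes after their values were seen. Figures were drawn with matplotlib 3.10.9.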

Additional observations from a re-analysis of the deposited data

How the results depend on the processing

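On set averages 28 of 3202 probes passed, 53.6% of them higher in psad1. With 12 samples 505 passed, with a random block for sets 84, and after position correction 59 (439 on 12 samples). Array weights gave 59, the floor at the 10th percentile 46 and no filter on dim probes 51. A replicate block by set number gave 27 (37% higher), and a replicate block by sample number on 12 samples gave 761 (41.1% higher). Median centring gave 28 with 39.3% higher. Leaving out 1 set gave 9 to 53 and leaving out 1 sample 23 to 42. CSLA01 passed with a log2 change of −0.616 on 12 samples, with the random block, with either replicate block, with the floor at the 10th percentile and without the filter, with −0.634 after quantile normalization, −0.624 after median centring, −0.586 after position correction (both fits) and −0.565 with array weights. It did not pass with the common floor (adjusted p 0.0693), the offset (0.0502), the filter for 6 samples above the floor (0.0515) or a trend and robust fit (0.056). Leaving out 1 sample gave −0.652 to −0.581 and leaving out 1 set −0.723 to −0.542. The cause of these moves was not tested. GH9B8 (0.0705 to 0.485) and GH9B11 (0.0971 to 0.258) stayed above 0 and passed in 0 of 33 alternatives each. With either replicate block neither of them passed. Signal near the floor limits GH9B8 most and CSLA01 less.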

Other observations

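Of 24 groups of 6 samples examined, the CSLA01 and GH9 probes in psad1 and in WT, 0 held a sample far from the others of its genotype by Dixon's criterion. A set of 2 alike samples that lies apart would not be marked by it. Among the probes for several cellulase genes, 2 probes list GH9B14 and GH9B15, and they differed: 1 was at or below the floor in 6 of 6 psad1 and 5 of 6 WT samples, and the other was above it in all 12, at 2.55 to 4.96 times the floor. The probe above the floor averaged 0.768 in psad1 set 1, against 0.496 in WT set 1, and 0.536 and 0.552 in psad1 sets 2 and 3, against 0.519 and 0.556 in those of WT.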
